A study of Mus musculus with 4 samples.

Results

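The genes described here encode the digestive machinery of the lysosome: its soluble hydrolases, the membrane proteins that line it and the subunits of the proton pump that acidifies it. They were chosen by name, with earlier results of these data known, as 40 genes looked up by symbol in the platform annotation. The arrays measured 22180 genes by a probe set with a single gene symbol. Of the 40, 38 had such a probe set, 42 probe sets in all. The probe set of Glb1, beta-galactosidase, also lists Tmppe and was not used, and Atp6v0c, a subunit of the membrane ring of the pump, had none listed. All 38 passed the level filter described below, and all 38 lay on every array above the level that 95% of olfactory, vomeronasal and trace amine receptor genes, taken as background, did not exceed. Roles are given for 6 groups: 5 membrane proteins, 11 proteases, 3 lipid hydrolases, 11 glycan hydrolases, 2 lipid transfer or activator proteins and 8 pump subunits.

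Cultured mouse bone marrow-derived macrophages were profiled on 4 arrays, 1 per group, each holding RNA pooled from 3 samples. The groups were macrophages of HilpdaΔMΦ mice (knockout, KO) after 12 h, cells of Hilpda flox/flox littermates (wild type, WT) after 12 h, and KO and WT cells after 24 h. Mice were 8 to 12 weeks old, marrow was matured in L929-conditioned medium, and every group received 600 µM palmitate and oleate (1:2) bound to albumin. The line that deletes Hilpda in macrophages and the part of the gene removed are not given in the sources used here. Wild type therefore means floxed and not deleted, and cells without added fatty acid were not analysed here, so no value below measures the response to the lipid itself. With 1 array per group there is no replicate error for any pairwise difference.

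Lysosomes take in material from endocytosis, phagocytosis and autophagy and break it down with hydrolases that work in acid. The acid comes from the V-ATPase, in which a cytosolic V1 part splits ATP and turns a membrane V0 part that moves protons. In macrophages this system digests engulfed cells and lipoproteins, and lysosomal acid lipase frees fatty acids and cholesterol from them. Many lysosomal genes carry a CACGTG-centred element, the CLEAR element, bound by transcription factors of the TFEB family.

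HILPDA inhibits adipose triglyceride lipase at lipid droplets, and its transcript was set out first as a check of the labels. Hilpda was at 5.41 in KO and 5.93 in WT at 12 h, and at 5.27 in KO and 5.47 in WT at 24 h, all as log2 RMA levels. The library labelled knockout was lower at both times, by 0.51 and by 0.20 on the log2 scale, and the only probe set may lie outside the deleted part. Pearson's r between any pair of arrays lay between 0.984 and 0.988, which describes probe sets and not replicates. Macrophage markers were present on all arrays, with 0 of 9 measured near background, and their summed level ran from 14.2 on the KO 12 h array to 14.5 on the WT 24 h array (log2 of the sum). Stromal markers, of which Lum and Thy1 were near background on all 4 arrays, summed to 8.62 in KO and 9.13 in WT at 12 h, and to 9.09 in KO and 9.86 in WT at 24 h. Osteoclast markers, with Calcr near background, summed to 10.24 in KO and 10.14 in WT at 12 h, and to 10.59 in KO and 10.25 in WT at 24 h. They include Ctsk and Atp6v0d2 of the genes described here. The sum mostly follows Atp6v0d2, the brightest of them at 9.45 to 10.09, and is no separate reading of osteoclasts. Of the 9 past the level filter 6 were higher in KO at 24 h and 3 lower, namely Nfatc1 at -0.15, Mmp9 at -0.18 and Dcstamp at -0.54. Dendritic cell markers summed to between 7.31 and 7.55, with Flt3 and Zbtb46 near background. Of the neutrophil markers 6 of 8 measured and of the lymphocyte markers 4 of 5 measured were near background on all arrays. The part of these cells in the results below was not tested, and in bulk RNA fewer cells of a type and less RNA per cell cannot be told apart.

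At 12 h the differences between the genotypes were small for the lysosomal genes. None of the 38 was past 1.5-fold, where 2.90% of the 13308 genes past the level filter and 0.113% of the 4436 genes past the 80th percentile of level were, and none was past 1.2-fold, where 19.7% and 3.81% were. The level filter drops genes whose mean log2 level over the 4 arrays is under 2.44, the 40th percentile. The differences, KO minus WT on the log2 scale, ran from -0.20 for Ctsc to 0.21 for Gla with a median of 0.03, against 0.00 over all genes past the filter. Of the 38 differences 30 were above 0, against 50.6% of all genes and 52.4% of those past the 80th percentile. That count was 25 to 32 under the other scalings and filters tried.

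At 24 h most lysosomal genes lay slightly higher in KO. Few were past a fold rule, at shares no higher than those of all genes past the filter. The median difference over the 38 was 0.08, against 0.01 over all genes past the filter, and 30 of 38 were above 0, against 50.9% of all genes (52.2% past the 80th percentile of level). That count was 28 to 32 under the other settings. A single gene, Ctsc, was past 1.5-fold, and it was lower. Of all genes 6.49% were past 1.5-fold in either direction and 3.51% were lower, and of those past the 80th percentile 1.83% and 1.15%. At 1.2-fold, 4 genes were higher and 1 lower, against 15.4% and 15.5% of all genes and 9.85% and 8.00% of the genes past the 80th percentile. The 38 genes were above 0 at both times in 25 cases, against 27.5% of all genes and 30.3% of those past the 80th percentile, and in 21 to 25 cases under the other settings. Below 0 at both times were Ctsc, Asah1 and Man2b1. The difference at 24 h was larger in size than that at 12 h for 32 of the 38, against 60.9% of all genes and 67.3% of those past the 80th percentile. The difference at 24 h less that at 12 h was above 0 for 28 of 38, against 49.8% of all genes and 50.4% past the 80th percentile, and past 1.5-fold for 0, against 10.1% and 1.76%. The count above 0 was 22 to 30 under the other settings, and its lowest value came with the arrays centred on their median, where the median over the 38 was 0.01, against 0.05 as deposited.

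**Figure D1:**
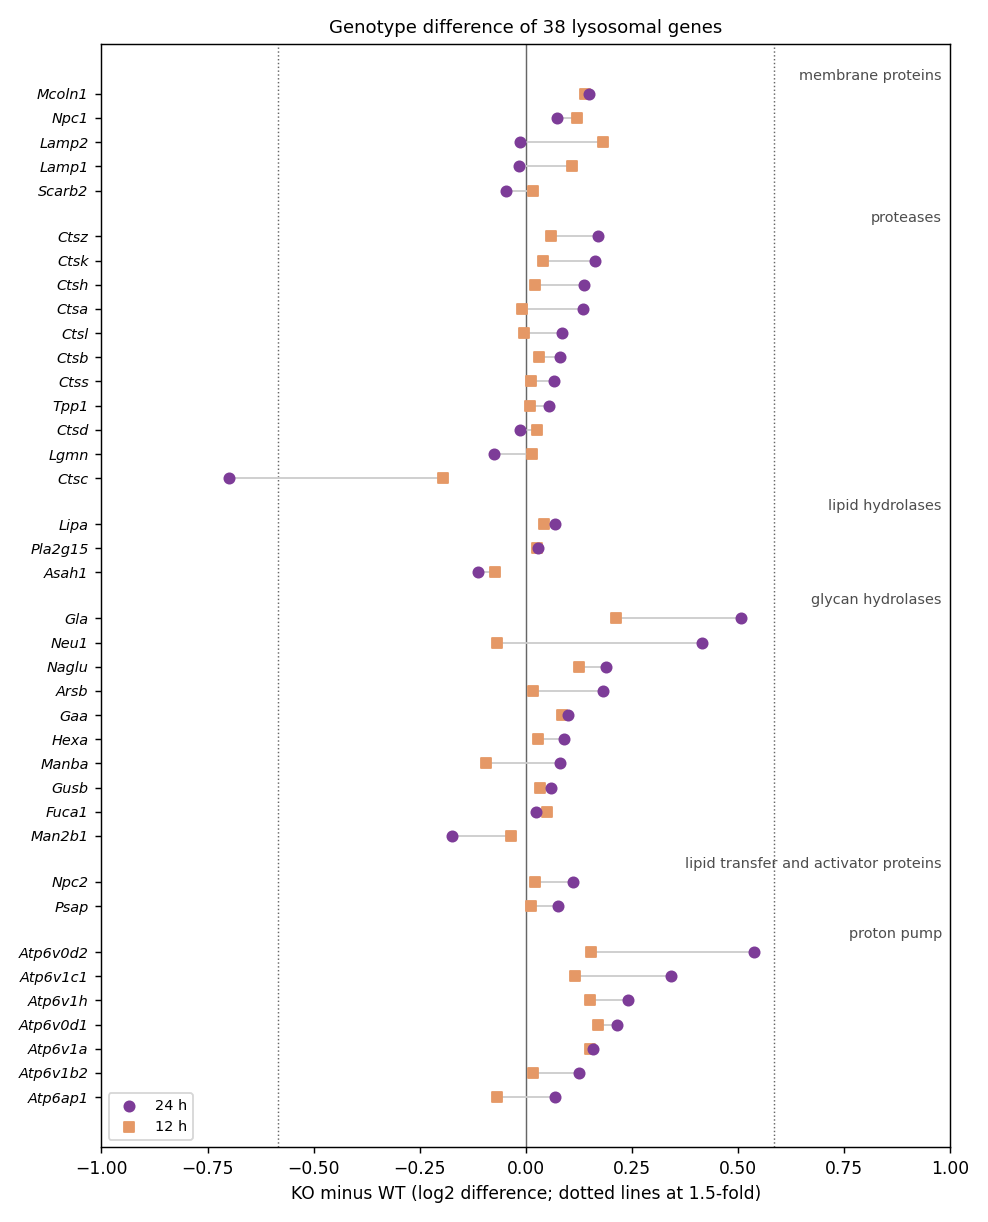
Genotype difference (KO minus WT, log2) of each of the 38 genes, in rows by role, with circles for 24 h and squares for 12 h and dotted lines at 1.5-fold. Ctsc at 24 h is the only point past a dotted line, and all 7 pump genes lie right of 0 at 24 h.

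The 7 measured pump subunit genes of the list described here lay on the KO side almost throughout, and further pump genes, given below, did so less. All 7 were higher in KO at 24 h, under every scaling and filter tried, with a median of 0.21. At 12 h 6 of 7 were (5 or 6 under the other settings), with a median of 0.15. The shares above 0 over all genes past the filter were 50.9% at 24 h and 50.6% at 12 h. Atp6v0d2 encodes the d2 subunit of V0, an isoform abundant in macrophages and osteoclasts. Its level was 9.60 in KO and 9.45 in WT at 12 h, and 10.09 in KO and 9.55 in WT at 24 h. The KO 24 h array stood above the remaining 3, which spanned 0.15, and the difference at 24 h was 0.54 or 1.45-fold. Atp6v0d1, the ubiquitous d isoform, was at 10.08 in KO and 9.92 in WT at 12 h, and at 10.01 in KO and 9.80 in WT at 24 h. Its differences of 0.17 and 0.21 were of like size at the 2 times.

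Among genes of the V1 part, Atp6v1c1, which encodes the C subunit that links V1 to V0, was at 9.94 in KO and 9.83 in WT at 12 h, and at 10.05 in KO and 9.71 in WT at 24 h. This is 1.27-fold at 24 h. Atp6v1h, the regulatory H subunit, was at 8.05 in KO and 7.90 in WT at 12 h, and at 8.01 in KO and 7.77 in WT at 24 h. For these genes both KO arrays were above both WT arrays. Atp6v1a, the catalytic A subunit, differed by 0.15 at 12 h and 0.16 at 24 h. Atp6v1b2, the B2 subunit, differed by 0.02 and 0.12 (its dimmer probe set by -0.09 and -0.06), and Atp6ap1, an accessory subunit, by -0.07 and 0.07. Of 18 further pump genes 13 passed the level filter, with 10 above 0 at 12 h and 9 at 24 h, against 50.6% and 50.9% of all genes. Their medians were 0.03 and 0.08, against 0.15 and 0.21 for the 7 genes above. Past 1.5-fold were 0, against 2.90% and 6.49% of all genes. Named after their values were seen, the V1 subunit genes Atp6v1g1, Atp6v1d and Atp6v1e1 were at 0.57, 0.41 and 0.41 at 24 h and at 0.03, 0.07 and 0.03 at 12 h. The 4 below 0 at 24 h were Atp6v1f at -0.26, Atp6v1e2 at -0.23, Atp6v0a2 at -0.07 and Atp6v1g2 at -0.04.

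Of the 10 measured glycan hydrolase genes, 7 were above 0 at 12 h and 9 at 24 h, against 50.6% and 50.9% of all genes past the filter. Their medians were 0.03 and 0.09. Gla encodes alpha-galactosidase A, which cleaves globotriaosylceramide. It was at 10.00 in KO and 9.78 in WT at 12 h, and at 9.77 in KO and 9.27 in WT at 24 h. Gla had the highest genotype difference of the 38 at 12 h, 0.21, and the second highest at 24 h, 0.51 or 1.42-fold. Neu1, the sialidase that removes terminal sialic acids, was at 7.67 in KO and 7.74 in WT at 12 h, and at 7.92 in KO and 7.51 in WT at 24 h. Its difference was -0.07 at 12 h and 0.41 at 24 h, the largest positive change between the times among the 38 (0.48). The carboxypeptidase gene Ctsa, whose product holds NEU1 in a stable complex, differed by -0.01 and 0.13.

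Naglu and Arsb, enzymes of heparan sulfate and dermatan sulfate breakdown, were higher in KO at 24 h by 0.19 and 0.18. Man2b1, lysosomal alpha-mannosidase, was the single glycan hydrolase gene below 0 at 24 h. It was at 10.34 in KO and 10.37 in WT at 12 h, and at 10.46 in KO and 10.63 in WT at 24 h. Manba, beta-mannosidase, had the second lowest difference at 12 h, at 7.55 in KO and 7.64 in WT, and was at 7.62 in KO and 7.54 in WT at 24 h. Hexa, Gaa, Gusb, Manba and Fuca1, which act on gangliosides, glycogen, glucuronides, mannosides and fucosides, lay between 0.02 and 0.10 at 24 h. A second, dimmer probe set of Arsb differed by -0.05 at 12 h and 0.44 at 24 h, on the same side as the brighter one at 24 h.

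Ctsc was the exception among the proteases. It encodes cathepsin C, or dipeptidyl peptidase I, known for removing the propeptides of granule serine proteases. Ctsc was at 9.25 in KO and 9.44 in WT at 12 h, and at 9.60 in KO and 10.30 in WT at 24 h. The WT 24 h array stood above the remaining 3, which spanned 0.35, and KO was lower by 0.70 on the log2 scale at 24 h, or 1.62-fold in size. The other 10 protease genes lay between -0.01 and 0.06 at 12 h and between -0.08 and 0.17 at 24 h, so none of them reached 1.2-fold. These include the cysteine cathepsins Ctsb, Ctsh, Ctsk, Ctsl, Ctss and Ctsz, the aspartic protease gene Ctsd, Lgmn, which cuts after asparagine, and Tpp1, a tripeptidyl peptidase. Ctsb, Ctsd, Ctss, Lipa and Psap had log2 levels above 12 on every array, where the highest value of any probe set was 13.2.

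The lipid hydrolase genes had small genotype differences at both times. Lipa, lysosomal acid lipase, was at 12.44 in KO and 12.39 in WT at 12 h, and at 12.53 in KO and 12.46 in WT at 24 h. Pla2g15, the lysosomal phospholipase A2, was at 9.63 in KO and 9.61 in WT at 12 h, and at 9.92 in KO and 9.89 in WT at 24 h. Asah1, acid ceramidase, was at 10.08 in KO and 10.15 in WT at 12 h, and at 10.22 in KO and 10.33 in WT at 24 h. The WT array was the higher for Asah1 at both times, by less than 1.2-fold. A dimmer probe set of Pla2g15 disagreed, with differences of -0.83 and 0.14. Npc2 and Npc1, which hand cholesterol on and out of the lysosome, differed by 0.02 and 0.12 at 12 h and by 0.11 and 0.07 at 24 h; a second Npc1 probe set lay near background. Psap, the precursor of the saposins, differed by 0.01 and 0.08.

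Among the membrane proteins, all 5 were above 0 at 12 h (4 or 5 under the other settings) and 2 of 5 at 24 h. Of all genes past the filter 50.6% and 50.9% were. Lamp2, which lines the membrane and takes part in chaperone-mediated autophagy, was at 10.64 in KO and 10.45 in WT at 12 h, and at 10.65 in KO and 10.67 in WT at 24 h. Here the WT 12 h array was below the remaining 3. Lamp1 was also lowest on the WT 12 h array, with differences of 0.11 and -0.02. Mcoln1, the lysosomal calcium channel TRPML1, was higher by 0.14 and 0.15, and Scarb2, the carrier of glucocerebrosidase, was at 0.02 and -0.05.

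**Figure D2:**
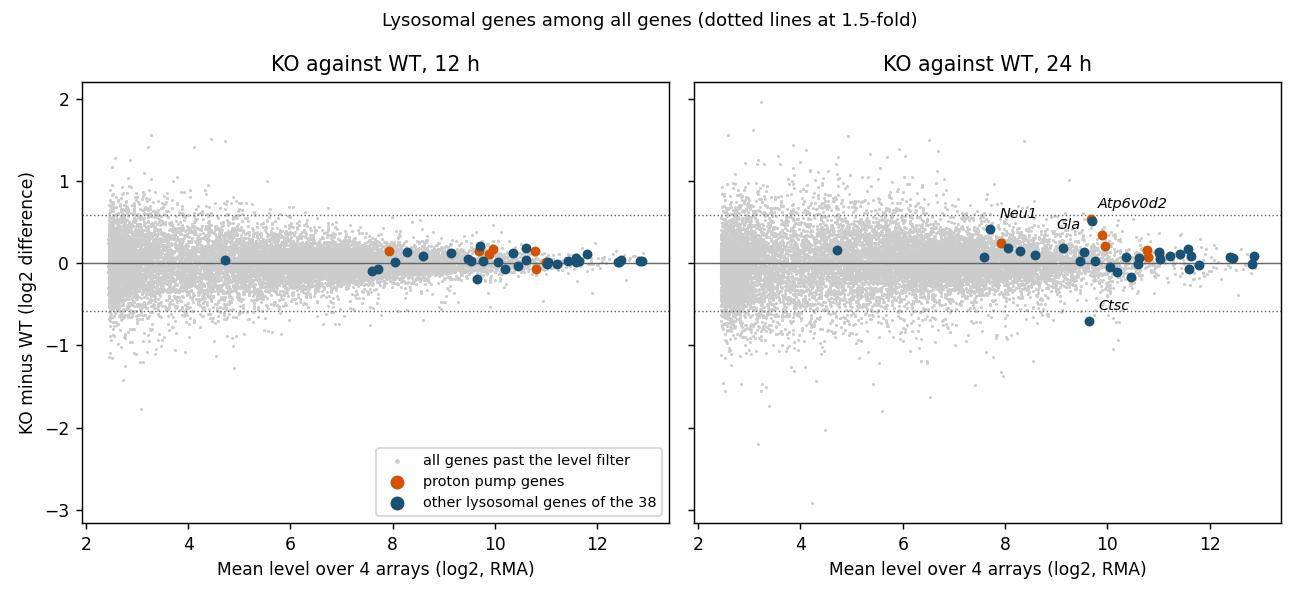
Genotype difference (KO minus WT, log2) against mean level over the 4 arrays for the 13308 genes past the level filter in grey, the 7 pump genes in orange and the other lysosomal genes in blue, at 12 h and 24 h. The lysosomal genes sit among bright genes, whose differences scatter less than those of dim genes, and Ctsc is the only one outside the dotted 1.5-fold lines.

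A test across all genes needed the arrays of both times in one fit. In this limma fit, with additive terms for genotype and time, the genotype term gave 0 of the 38 genes and 0 of all 13308 an adjusted p under 0.05 (Benjamini-Hochberg). At an unadjusted p under 0.05 there were 2 of 38, Ctsc and Gla, against 6.52% of all genes. With limma-trend, 0 of the 38 and 0 of all genes passed after adjustment, and 5 of 38 had an unadjusted p under 0.05, against 7.33% of all genes. The limma genotype difference was -0.45 for Ctsc and 0.36 for Gla, both with a limma adjusted p of 0.760. Each had the same sign at both times, and the unadjusted p of Gla was above 0.05 without a level filter and with quantile normalization repeated. The limma adjusted p ran from 0.503 to 0.866 for Ctsc and from 0.470 to 0.866 for Gla over the settings tried. The fit leaves 1 residual degree of freedom per gene, and limma adds to it a spread shared over all genes that counts as 3.30 degrees of freedom. The samples pooled on an array are not separate measurements, and no replicate arrays enter the fit. With 1 array per group, a gene's own spread is set only by how far its genotype differences at 12 h and 24 h disagree. A genotype difference that shifts between the times therefore counts as noise here, for the genotype term and for the time term. The p-values do not measure variation between repeated arrays of a group.

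The promoters of the genes were read from RefSeq (GRCm38.p6) as the 250 bases before and 50 after each annotated start, and 32 of the 40 genes had an entry. Ctsb, Ctsh, Asah1, Npc1, Atp6v0d2, Atp6v1b2, Atp6v1c1 and Atp6v1h had none in the table used. The letters CACGTG, which read the same on both strands, were found in 12 of the 32 genes (37.5%), against 8.09% of 27025 genes with a promoter and 13.9% of those past the 80th percentile of level. The longer palindrome TCACGTGA, which contains the first, was found in 6 of 32 (18.8%), against 1.12% and 3.21%. Its extension by G at the front and C at the end was found in 0 of 32, against 0.370% and 1.19%. A match is a string of letters and not a shown binding site. The genes were chosen by name as lysosomal genes, many of which are known to carry such an element. A higher share among them therefore says nothing about these arrays. The matches of TCACGTGA are given with 11 bases on either side, the palindrome in capitals, because these 6 genes span the pump, the channel and the hydrolases.
Gla, chrX:134600956-134601255, minus strand, 228 bases before the start: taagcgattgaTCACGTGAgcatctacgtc
Gla, second match, 195 bases before the start: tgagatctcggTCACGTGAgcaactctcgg
Atp6v0d1, chr8:105566015-105566314, minus strand, 4 bases before the start: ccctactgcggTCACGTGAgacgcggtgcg
Atp6v1a, chr16:44139210-44139509, minus strand, 132 bases before the start: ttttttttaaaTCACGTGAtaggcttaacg
Mcoln1, chr8:3500269-3500568, plus strand, 46 bases before the start: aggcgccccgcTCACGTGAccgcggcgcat
Ctsd, chr7:142387778-142388077, minus strand, 99 bases before the start: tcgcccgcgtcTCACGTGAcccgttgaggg
Ctsa, chr2:164833523-164833822, plus strand, 13 bases before the start: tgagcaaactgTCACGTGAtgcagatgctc
Ctsa, second match, first base at position 5 after the start: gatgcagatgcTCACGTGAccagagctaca

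The 6 genes with TCACGTGA had median genotype differences of 0.15 at 12 h and 0.15 at 24 h, with 5 of 6 above 0 each time. The 24 measured genes whose promoter lacked it had medians of 0.02 and 0.07, with 18 of 24 above 0 each time. Over all genes past the level filter, the 213 with the palindrome had medians of 0.02 and 0.06 and those without it 0.00 and 0.01. For the shorter CACGTG, the 11 measured genes with it had medians of 0.11 and 0.13, with 9 above 0 at 12 h and 8 at 24 h, and the 19 without it had medians of 0.02 and 0.07, with 14 and 15 above 0. These are descriptions without a test, and genes are not replicates. The groups also differ in role: Atp6v0d1 and Atp6v1a, among the genes with TCACGTGA, are pump genes. The pump genes Atp6v0d2, Atp6v1b2, Atp6v1c1 and Atp6v1h had no promoter entry and are in neither group. Motif and role cannot be told apart here. Within the 6, Gla was highest at both times and Ctsd, at 0.03 and -0.01, and Ctsa were the lowest.

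The promoters of Gla and Ctsc are printed whole, as the gene with the palindrome and the largest difference toward KO at 12 h, and the gene lower in KO by 1.62-fold at 24 h. That of Gla holds the palindrome at 2 places, in capitals, and that of Ctsc holds no CACGTG in this window.
Gla, chrX:134600956-134601255, minus strand: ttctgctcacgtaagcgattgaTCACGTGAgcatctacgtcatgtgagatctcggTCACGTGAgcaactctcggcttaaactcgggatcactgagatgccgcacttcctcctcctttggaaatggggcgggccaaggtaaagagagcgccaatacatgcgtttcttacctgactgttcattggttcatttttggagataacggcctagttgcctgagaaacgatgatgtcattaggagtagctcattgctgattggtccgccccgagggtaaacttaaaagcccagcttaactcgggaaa
Ctsc, chr7:88277835-88278134, plus strand: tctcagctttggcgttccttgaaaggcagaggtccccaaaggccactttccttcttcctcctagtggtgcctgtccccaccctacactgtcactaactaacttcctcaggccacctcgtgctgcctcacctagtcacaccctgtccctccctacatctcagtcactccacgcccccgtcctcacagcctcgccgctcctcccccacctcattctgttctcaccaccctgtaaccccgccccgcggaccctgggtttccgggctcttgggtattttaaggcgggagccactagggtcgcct

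At 24 h most of the 38 genes were slightly lower than at 12 h, and a few differed by more. The median difference, 24 h minus 12 h, was -0.03 in KO and -0.05 in WT, against 0.00 and -0.01 over all genes past the filter. Above 0 were 16 of 38 genes in KO, against 50.4% of all genes and 50.2% of those past the 80th percentile of level, and 12 of 38 in WT, against 49.1% and 48.5%. Lower at 24 h in both genotypes were 21 of 38, against 29.8% of all genes and 33.6% of those past the 80th percentile of level. Under the other scalings and filters 19 to 21 were lower in both. Higher in both were 11 genes, against 29.3% of all and 32.3% past the 80th percentile, and 6 had opposite signs, against 40.8% and 34.1%. In KO 1 gene was past 1.5-fold, against 6.31% of all genes and 2.57% past the 80th percentile, and 7 were past 1.2-fold, against 29.7% and 18.5%. In WT 2 genes were past 1.5-fold, against 8.72% and 5.23%, and 7 past 1.2-fold, against 33.9% and 24.1%. The time and genotype differences share arrays, so each array's level enters both.

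**Figure D3:**
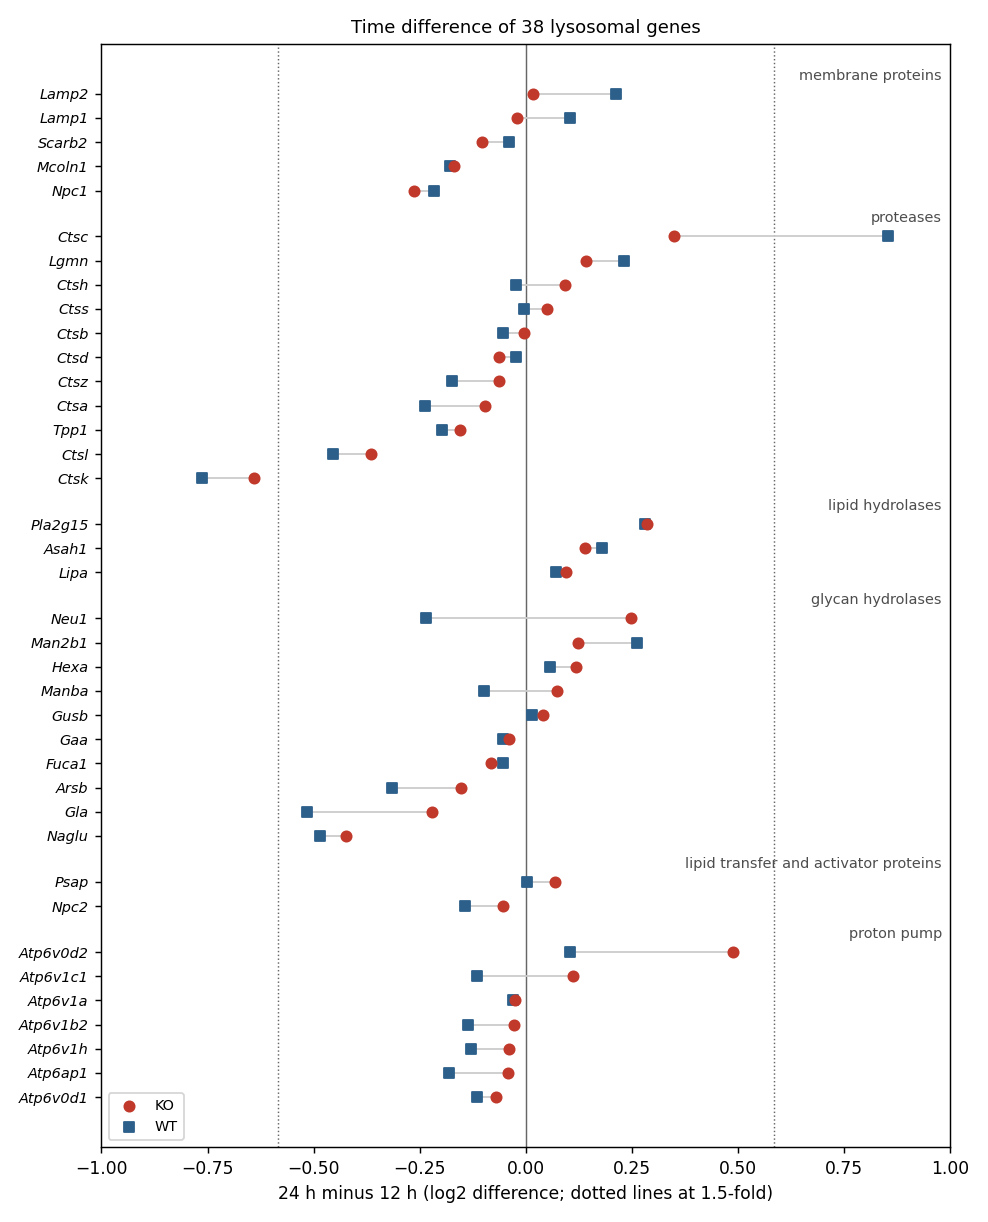
Time difference (24 h minus 12 h, log2) of each of the 38 genes by role, with circles for KO and squares for WT and dotted lines at 1.5-fold. Ctsk lies past the left line in both genotypes and Ctsc past the right line in WT; the 3 lipid hydrolase genes lie right of 0 in both.

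Ctsk, cathepsin K, best known for cutting collagen in osteoclasts, was the gene with the largest downward difference. It was at 4.45 in KO and 4.29 in WT at 24 h, and at 5.09 in KO and 5.05 in WT at 12 h. Both 24 h arrays were below both 12 h arrays, with differences of -0.64 in KO and -0.76 in WT, or 1.56-fold and 1.70-fold in size. Ctsl, cathepsin L, was also lower on both 24 h arrays, at 11.05 in KO and 10.97 in WT at 24 h, and at 11.42 in both genotypes at 12 h. Naglu was at 8.999 in KO and 8.81 in WT at 24 h, and at 9.42 in KO and 9.30 in WT at 12 h, which is lower by 1.34-fold in KO and 1.40-fold in WT. Npc1 was lower at 24 h by 0.26 in KO and 0.22 in WT.

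Gla was lower at 24 h by 0.22 in KO and 0.52 in WT, and its lowest level was that of the WT 24 h array. Ctsc was on the other side, higher at 24 h by 0.35 in KO and 0.85 in WT, or 1.27-fold and 1.81-fold. Pla2g15 was higher by 0.28 in both genotypes, Asah1 by 0.14 in KO and 0.18 in WT, and Lipa by 0.09 in KO and 0.07 in WT. All 3 lipid hydrolase genes were higher at 24 h in both genotypes, under every scaling and filter tried. The dimmer probe set of Pla2g15 disagreed in WT, with time differences of 0.81 in KO and -0.17 in WT. The pump genes were close to 0 in KO, with a median of -0.03, apart from Atp6v0d2 at 0.49; in WT their median was -0.12. Neu1 differed in opposite directions, by 0.25 in KO and -0.23 in WT, and this contrast was not tested.

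**Figure D4:**
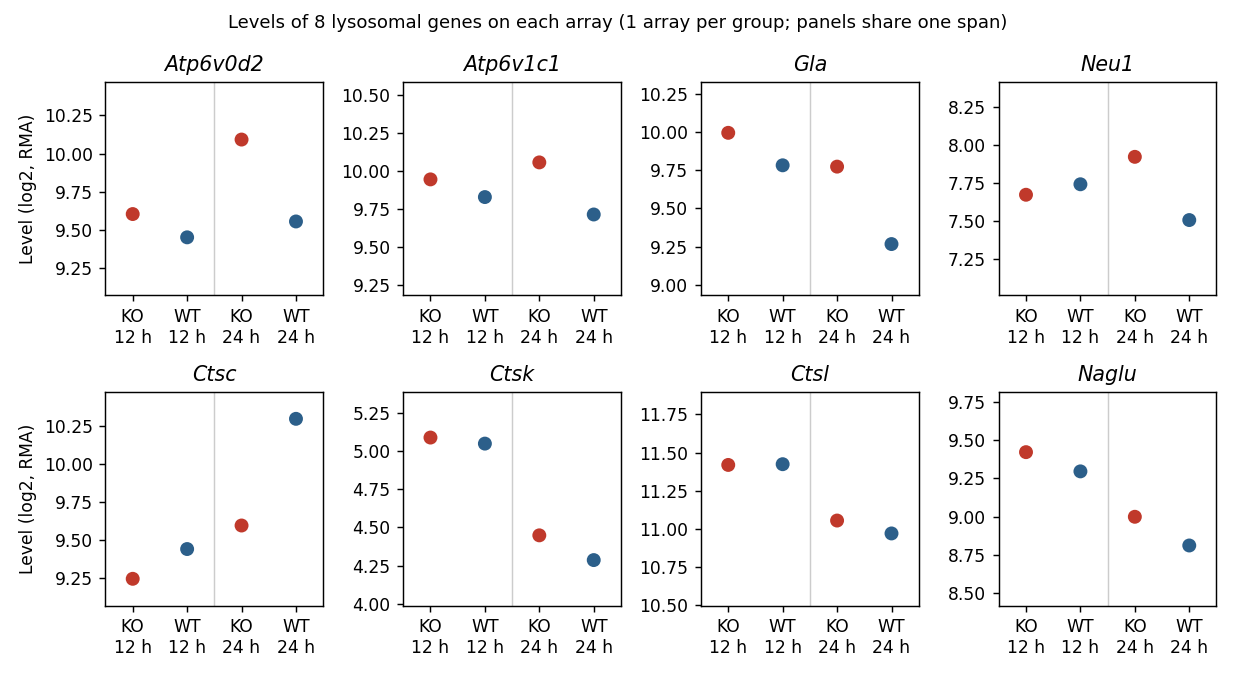
Levels (log2, RMA) of 8 genes on the 4 arrays, KO in red and WT in blue, each panel spanning the same range. Atp6v0d2 is highest on the KO 24 h array, Ctsc is highest and Gla and Neu1 lowest on the WT 24 h array, and Ctsk, Ctsl and Naglu are lower on both 24 h arrays than on both 12 h arrays.

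The time term of the limma fit gave an adjusted p under 0.05 for 0 of the 38 genes and 0 of all 13308. At an unadjusted p under 0.05 there were 5 of 38, Ctsc, Ctsk, Ctsl, Gla and Naglu, against 13.2% of all genes. Ctsk had the lowest unadjusted p of the 38 in this limma fit, 0.00289, with an adjusted p of 0.174. With limma-trend, in which the expected spread follows the level, Ctsc, Ctsl and Naglu passed, at adjusted p of 0.0300, 0.0187 and 0.0174, where 4.06% of all genes passed. With limma-trend 13 of 38 had an unadjusted p under 0.05 for time, against 15.7% of all genes. Over the settings tried the adjusted p of Naglu ran from 0.0174 to 0.394 and that of Ctsk from 0.0512 to 0.279.

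The WT 24 h array was the one farthest from the median of the other 3 for 22 of the 38 genes, or 57.9%, against 35.3% of all genes past the filter and 40.9% of those past the 80th percentile of level. The KO 24 h array was farthest for 10, the KO 12 h array for 3 and the WT 12 h array for 3. Both the genotype difference at 24 h and the time difference in WT rest on this array, and its part in them was not tested. Macrophage markers were lower in KO at 24 h in 7 of 9 cases, with a median of -0.26, and higher at 24 h than at 12 h in WT in 8 of 9, with a median of 0.26. Stromal markers past the filter were lower in KO in 7 of 7 cases at both times, with medians of -0.56 at 12 h and -0.49 at 24 h. Of all genes past the filter, 50.6% were above 0 in KO against WT at 12 h, 50.9% at 24 h, and 49.1% between the times in WT. The part of these marker differences in the lysosomal ones was not tested. Over the 4 arrays, 5 of the 38 genes spanned at least 1.5-fold, against 19.4% of all genes and 8.50% past the 80th percentile. The median span was 0.22 log2 units over the 38, close to the 0.24 over genes past the 80th percentile.

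Other genes of the lysosome, listed by function, were set beside these 38. The lists are not strict. That of hydrolases also holds Gba2, Gm2a, Sumf1 and Gpr137b, which are not lysosomal hydrolases. That of membrane proteins also holds Grn, a soluble protein, and Nceh1, of the endoplasmic reticulum. For each list below, the shares over all genes past the filter in KO against WT were 50.6% above 0 at 12 h and 50.9% at 24 h. Past 1.5-fold were 2.90% and 6.49%. Of 44 further hydrolase genes 35 passed the filter, with 19 above 0 at 12 h and 17 at 24 h in KO against WT, medians of 0.02 and -0.02, and 0 past 1.5-fold at either time. Between the times 0 of them were past 1.5-fold in KO, against 6.31% of all genes and 2.57% past the 80th percentile of level. In WT 3 were higher and 3 lower by that rule, against 8.72% and 5.23% in either direction. Galns, which acts on keratan sulfate, was lower at 24 h by 0.53 in KO and 0.80 in WT, while Pld4, a lysosomal exonuclease, was higher by 0.25 in KO and 0.66 in WT. Naaa, an acid amidase, was higher by 0.32 in KO and 0.64 in WT, and Dpp7, a dipeptidyl peptidase, was lower by 0.27 in KO and 0.62 in WT.

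Of 39 further membrane protein genes 38 passed, with 27 above 0 in KO against WT at each time and medians of 0.05 and 0.07. Mcoln3, a channel of the same family as Mcoln1, was at 7.40 in KO and 7.03 in WT at 12 h, and at 7.88 in KO and 7.29 in WT at 24 h. Its difference of 0.59 at 24 h was the single one past 1.5-fold in that list; the limma genotype term gave an adjusted p of 0.760. Mcoln2, another channel of the family, was higher at 24 h by 0.61 in KO and 0.67 in WT. Slc36a1, an amino acid transporter, differed by -0.65 in KO and -0.02 in WT between the times.

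Of 34 genes that deliver enzymes to lysosomes 32 passed, with 21 above 0 in KO against WT at each time. Gnptab, the phosphotransferase that begins the mannose 6-phosphate tag on hydrolases, was at 9.01 in KO and 8.75 in WT at 12 h, and at 8.49 in KO and 8.02 in WT at 24 h. Ap1b1, an adaptor subunit for transport from the Golgi, was lower in KO, with differences of -0.20 at 12 h and -0.55 at 24 h. Among 11 cystatins and other protease inhibitors 7 passed, with 3 above 0 at 12 h and 4 at 24 h, and Timp1, an inhibitor of metalloproteinases, was lower in KO by 0.35 and 0.69. Serpinb1a, an inhibitor of serine proteases, was lower at 24 h by 0.67 in KO and 0.90 in WT. The list of TFEB family and lysosomal signalling genes had 21 of 22 past the filter, with 10 above 0 at 12 h and 12 at 24 h. Tfeb itself differed by -0.04 and -0.07 between the genotypes, Tfe3 by 0.02 and -0.26, and Mitf by -0.07 and -0.11. Tfec, the family member found mainly in macrophages, was at 6.17 in KO and 6.25 in WT at 24 h, and at 5.05 in KO and 5.03 in WT at 12 h, which is 1.12 and 1.22 higher on the log2 scale, with an adjusted p of 0.121 for time in the limma fit.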

How the data were processed

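Transcripts were measured on 4 whole-transcript arrays, 1 per group, each with RNA of 3 samples pooled, per the labels' protocols. The authors deposited a log2 level for each probe set, and the submitters' processing notes name RMA. RMA evens out the arrays' probe intensities before it summarizes them, which can hide a change common to all transcripts, and the deposited array medians still ran from 2.70 to 2.73. Its version and annotation are not given in the sources used here, and the log2 scale was read from the values. The number of arrays limits the precision.

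Of 41345 probe sets 23521 had 1 gene symbol, 1814 several and 16010 none listed; only the first kind was used. For a gene with several probe sets the one with the highest mean was taken. Differences between arrays were counted at 1.5-fold, and at 1.2-fold as an alternative. Tests used limma 3.58.1 (R 4.3.3) on all genes past the filter, with 1 residual degree of freedom. Background level was taken from 1405 receptor genes. In simulated data for this genotype fit with 13308 genes and 200 changed, it recovered 79% of 2-fold and 100% of 4-fold changes, with 5 unchanged genes called. The simulated noise was independent between arrays, with no time effect and the same genotype difference at both times. These rates check the code and do not give the power of the fit on the real arrays. Alternatives were other level filters (none, 60th and 80th percentile), fold rules (1.2, 1.3, 2), repeated quantile normalization, centring of arrays on their median, removal of a loess trend on level (span 0.3), the mean over probe sets and limma-trend. The genes and lists were chosen with earlier results of these data known. Genes given array by array were those past 1.5-fold, the 3 highest and 3 lowest of each comparison, and some described for their role; of the other lists, up to 5 members past 1.5-fold in any comparison, with Hilpda, Tfeb, Tfe3, Mitf and Tfec.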

Additional observations from a re-analysis of the deposited data

Results flagged for a closer look

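Acp5, tartrate-resistant acid phosphatase and an osteoclast marker, had genotype differences of opposite sign at the 2 times. It was lower in KO at 12 h, at -0.38 on the log2 scale, and higher in KO at 24 h, at 0.48. Its levels were 3.89 in KO and 4.27 in WT at 12 h, and 4.13 in KO and 3.65 in WT at 24 h. Slc36a1, a lysosomal amino acid transporter, had the opposite order, at 0.26 at 12 h and -0.37 at 24 h. Its levels were 7.99 in KO and 7.73 in WT at 12 h, and 7.34 in KO and 7.70 in WT at 24 h. The KO 24 h array stood below the other 3 for Slc36a1. Both were singled out because each difference was past 1.2-fold and of opposite sign, and the change between the times was not tested. Past 1.2-fold were 19.7% of all genes past the filter at 12 h, 30.9% at 24 h and 37.6% for the change. The share of all genes that meet the whole rule is not given. Acp5 is dim, and differences of dim genes scatter more.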

How the results depend on the processing

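The median genotype difference over the lysosomal genes stayed within 0.01 to 0.04 at 12 h and 0.05 to 0.10 at 24 h over the scalings, filters and probe set rules tried, and the median time difference within -0.04 to -0.01 in KO and -0.08 to -0.03 in WT. The median change of the genotype difference lay within 0.01 to 0.08. Ctsc and Ctsk remained past 1.5-fold in their comparisons under each of these in which they were measured. Past the 80th percentile of level, Ctsk drops out, which leaves 0 genes past 1.5-fold between the times in KO and 1 in WT. At 1.2-fold, 5 genes were past the rule between genotypes at 24 h, 7 between times in KO, 7 in WT and 4 for the change of the genotype difference, against 30.9%, 29.7%, 33.9% and 37.6% of all genes. At 1.3-fold these counts were 4, 3, 5 and 3, against 17.1%, 16.8%, 20.4% and 23.5%. At 2-fold there were 0 between genotypes at 24 h, 0 between times in KO and 0 in WT. With limma-trend, 3 genes had an adjusted p under 0.05 for time against 0 without the trend; the cause was not tested. Over all genes, the time term was called in 540 with limma-trend and in 146 past the 60th percentile of level, against 0. The labels give no replicate numbers to pair; the additive limma fit already sets the genotypes against each other within each time. No array could be left out, since each group then has none.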
